A study of Mus musculus with 12 samples.

Results

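Fibroblast growth factor (FGF) signalling was described through 8 genes of the mouse dentate gyrus: the receptor kinases Fgfr1, Fgfr2 and Fgfr3, the kinase-less receptor Fgfrl1, the ligands Fgf1 and Fgf2, the intracellular family member Fgf14 and the adaptor Frs2. These 8 rows were taken by gene identifier from a deposited table of 50600 genes, and each of the 8 matched 1 row. The table held 12 libraries, with 4 for each of 3 cell types (astrocytes, progenitors and stem cells), and every library was made from 50 cells sorted from the dentate gyrus of adult mice that carry a Nestin-GFP reporter. All 3 cell types came from such mice, without any further treatment named in the labels, and were negative for CD31, CD45, O1 and O4. Stem cells were positive for both GFP and the astrocyte transporter GLAST, progenitors for GFP alone, and astrocytes for GLAST alone.

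FGF ligands bind receptor tyrosine kinases at the cell surface together with heparan sulfate. The activated receptors phosphorylate the adaptor Frs2, which recruits Ras-MAPK and PI3K signalling, and feedback inhibitors of the Sprouty, Spred and Dusp families limit the response. In the adult hippocampus this pathway is known for maintaining neural stem cells, and Fgfr3 is widely used as a marker of astrocytes.

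In these data Fgfr3 and Fgfr2 were lower in progenitors than in stem cells, by log2 fold changes of 1.75 and 1.20 in size, and no member passed the test in either comparison that involved astrocytes. Fgfr1 and Fgfr3 were the highest receptor kinases per length in all 3 cell types. Among the ligands Fgf1 was well above Fgf2, and 10 of 16 other secreted ligands had no count in any library. Counts were scaled to CPM (counts per 1000000, on library sizes scaled by TMM), so a value is a share of each library's RNA. In pools of 50 cells, fewer cells of a type and less RNA per cell cannot be told apart.

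The sequences before Fgfr3 and Fgfrl1 are shown because both receptors had a mean CPM in progenitors below 50% of that in stem cells and RefSeq starts that coincide with annotated GENCODE starts (3 transcripts for Fgfr3 and 1 for Fgfrl1, within 10 bases). Both lie on chromosome 5 of GRCm38.p6, on the plus strand, and are given 5′ to 3′ without any exonic base of a protein-coding gene. The Fgfrl1 stretch lies inside the annotated gene, which begins at chr5:108692382, and precedes the start of 1 of its 5 transcripts. Capitals mark matches to the GC box GGGCGG, the E-box CAGCTG and the ETS motif CCGGAAGT on either strand.
Fgfr3, chr5:33721474-33721673, 200 bases: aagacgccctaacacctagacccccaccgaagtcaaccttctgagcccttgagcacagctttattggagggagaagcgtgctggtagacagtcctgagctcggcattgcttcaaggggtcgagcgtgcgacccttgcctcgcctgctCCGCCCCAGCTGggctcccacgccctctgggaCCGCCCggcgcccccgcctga
Fgfrl1, chr5:108693979-108694228, 250 bases: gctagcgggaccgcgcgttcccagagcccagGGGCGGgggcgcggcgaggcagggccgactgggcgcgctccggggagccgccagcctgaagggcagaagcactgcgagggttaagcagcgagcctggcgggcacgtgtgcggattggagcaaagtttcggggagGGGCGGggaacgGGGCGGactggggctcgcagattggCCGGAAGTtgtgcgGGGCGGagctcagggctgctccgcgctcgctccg

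Over the 250 bases before the start used here, Fgfr3 held 3 GC boxes, which lie on the opposite strand at positions -103, -71 and -31, and 1 E-box at -97. The match at -31 falls beyond the printed stretch. Fgfrl1 held 4 GC boxes, at -219, -85, -73 and -34, and 1 ETS match at -48. Among 32851 RefSeq windows of the same length, 32.74% held a GC box, 13% this E-box and 2.88% this ETS motif. No TATA box (TATAAA), SOX (AACAAT), NFI half-site (TTGGCA) or AP-1 (TGAGTCA) match was found in either window, against 12.37%, 9.42%, 12.28% and 4.46% of all windows. CpG-rich starts were common to both, with 19 CpG dinucleotides before Fgfr3 and 30 before Fgfrl1 against a median of 6.0. A second RefSeq start of Fgfr3, at chr5:33722306, also had 2 GENCODE transcripts starting within 10 bases, and its sequence is not shown. The 250 bases before it held 2 GC boxes, at -87 and -82, no E-box and 24 CpG dinucleotides. These matches describe letters and were not tested for binding.

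Library totals ranged from 5357232 to 6253680 counts in astrocytes, from 9041498 to 12535028 in progenitors and from 5031166 to 10435711 in stem cells. Genes with at least 10 counts numbered 9430 to 11655 in astrocytes, 16389 to 17015 in progenitors and 13368 to 14175 in stem cells. The study called the astrocyte cDNA suboptimal and found the fewest transcripts passing its read-coverage filter there. The part of this in the zeros and spread of astrocyte values was not tested. The floor was set at 3 counts per library, which is 0.206 to 0.639 CPM. No molecular identifiers are named for these libraries, so floors cover counting error only. The labels name 4 samples for each cell type and the study calls them biological replicates and speaks of a single mouse brain for each. The labels do not tie libraries to animals, so libraries of different cell types may share a mouse. The p-values measure the spread between these libraries. Stem cell libraries carry their numbers, whereas the table names the astrocyte and progenitor columns by cell type only, and these are called a to d.

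The sorted cell types were checked against marker lists, because several of these receptors differ between glial cell types. The summed level of 10 astrocyte markers was 18400 to 24500 CPM in astrocytes, 8780 to 11400 CPM in progenitors and 27400 to 36700 CPM in stem cells. Slc1a3, which encodes GLAST, was at 4660 ± 1060 CPM in astrocytes, 2780 ± 579 CPM in progenitors and 7920 ± 1320 CPM in stem cells (SD, n = 4 each), so its mRNA was present in the GLAST-negative cells. Nes, the gene behind the reporter, had no count in astrocytes and at most 4 counts in a stem cell library. In progenitors it had 1 to 291 counts (9.95 ± 8.79 CPM). The study also saw Nes in progenitors only, and Nes failed its read-coverage filter. The 8 radial glia-like markers, Nes among them, summed to 490 to 965, 547 to 884 and 1140 to 1490 CPM in astrocytes, progenitors and stem cells.

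Progenitors carried markers of neurogenic progenitors, and also those of oligodendrocyte precursors and mural cells. The study likewise described higher counts of Dcx, Eomes, Neurod1 and Neurog2 in progenitors. These genes failed its read-coverage filter in every comparison, so it gave no significance for them. The 8 oligodendrocyte precursor markers summed to 2250 to 3900 CPM in progenitors, against 108 to 344 CPM in astrocytes and 73.6 to 213 CPM in stem cells, and all 8 had at least 10 counts in every progenitor library. The 8 markers of neurogenic progenitors and neuroblasts summed to 1210 to 1840 CPM in progenitors, 5.48 to 423 CPM in astrocytes and 16.4 to 44.8 CPM in stem cells. The 6 mural cell markers were at 923 to 2150 CPM in progenitors a, c and d, at 39.5 CPM in progenitor b, at 32.8 to 192 CPM in astrocytes and at 57.9 to 97.5 CPM in stem cells. They did not move together: Vtn was at 811 ± 625 CPM in progenitors, while Pdgfrb was at 66.5 ± 74.8, 69.0 ± 31.9 and 60.5 ± 24.1 CPM in astrocytes, progenitors and stem cells. By edgeR only Vtn, 1 of 5 tested, was called against stem cells, and 0 of 4 against astrocytes.

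Astrocyte libraries also varied in markers of other cells. The 7 mature neuron markers summed to 642 to 5480 CPM in astrocytes, with the highest level in astrocyte a, against 279 to 409 CPM in progenitors and 262 to 496 CPM in stem cells. Camk2a, at 1870 ± 1530 CPM in astrocytes, made up most of this sum. The means of Prox1 and Rbfox3 were highest in progenitors, and those of the other markers in astrocytes. The 6 oligodendrocyte markers summed to 337 to 3200, 249 to 417 and 475 to 821 CPM, and Mag was at 0 in all astrocyte libraries. Summed markers of cycling cells were at 1.06 to 63.3, 35.3 to 483 and 5.39 to 85.1 CPM in the same order, with Mki67 and Top2a at 0 in stem cells. Microglial and endothelial markers summed to 5.76 to 111 CPM (with Ptprc at 0 in every library) and to 0 to 88 CPM. The gates select against these cells and also against oligodendroglial cells. Oligodendrocyte markers nevertheless reached 3200 CPM in astrocytes, and precursor markers 3900 CPM in progenitors.

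**Figure D1:**
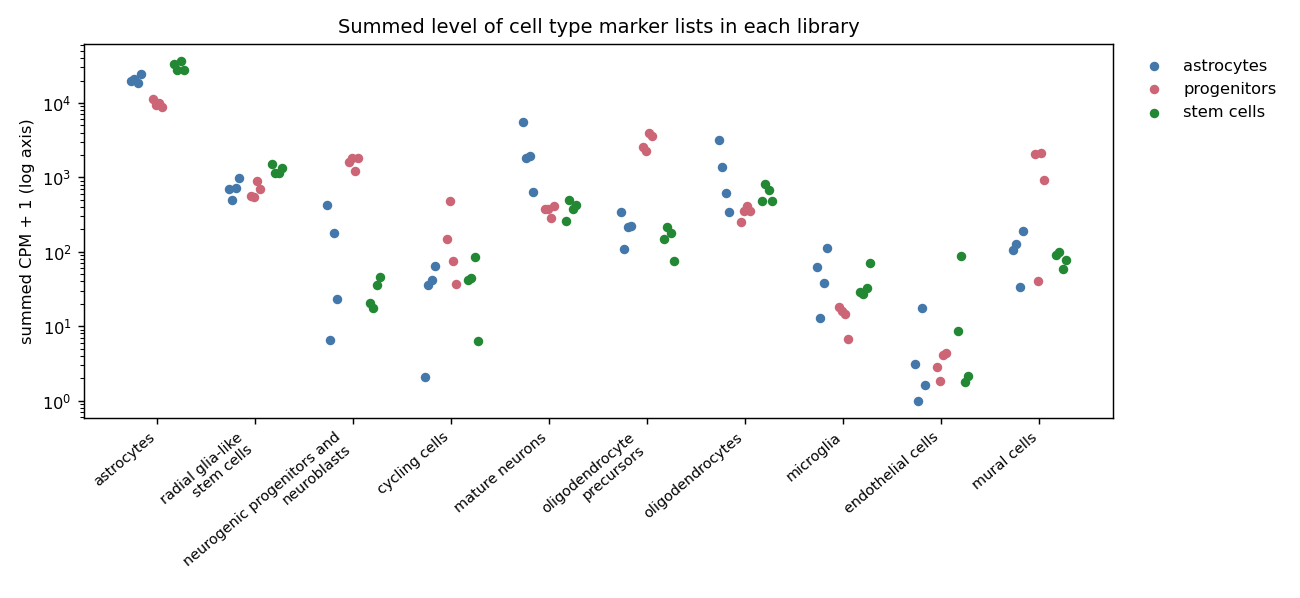
Summed CPM + 1 of 10 marker lists (y, log axis) in each of the 12 libraries, with 1 point per library and the cell type in colour. Progenitors lie above both other cell types in the oligodendrocyte precursor list (2250 to 3900 CPM) and the neurogenic list (1210 to 1840 CPM) and below them in the astrocyte list.

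Fgfr3, a receptor kinase for FGF ligands, showed the largest difference of the 3 kinases between progenitors and stem cells. Its level was 357, 337, 59.9 and 234 CPM in astrocytes a to d, 77.6, 51.5, 58.8 and 98.9 CPM in progenitors a to d, and 181, 243, 328 and 190 CPM in stem cells 1 to 4. Every stem cell library was above every progenitor library, and 3 of 4 astrocyte libraries were as well, while astrocyte c lay within the progenitor range.

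The mean was 71.7 ± 21.2 CPM in progenitors and 236 ± 67.6 CPM in stem cells (SD, n = 4 each), a 3.29-fold higher level in stem cells. The log2 fold change of progenitors over stem cells was -1.75 ± 0.28 (SE), with an adjusted p of 0.005 (edgeR quasi-likelihood test, Benjamini-Hochberg over the 15427 genes tested). The call held in each of 8 fits that left out a library (adjusted p between 0.010 and 0.024). It was lost when all 12 libraries were fitted together, where the log2 fold change was -1.74 with an adjusted p of 0.0792.

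In astrocytes Fgfr3 averaged 247 ± 136 CPM, 3.44-fold the progenitor mean. On the log2 scale the difference between astrocytes and progenitors, 1.77 ± 0.54, did not pass the threshold (adjusted p = 0.081, edgeR). Without astrocyte c it was 2.09 with an adjusted p of 0.024. With all libraries kept, it also passed with DESeq2 (1.83, adjusted p = 0.0256) and with all 12 libraries in one fit (1.79, adjusted p = 0.0312), so both astrocyte c and the choice of fit changed this call. Astrocytes and stem cells differed by 0.06 ± 0.50 on the log2 scale (adjusted p = 0.99, edgeR), far less than the spread among astrocytes. The Fgfr3 gene spans chr5:33721674-33737068 (plus strand), and 13.9% of its exonic bases overlap G630022F23Rik, a transcript of uncertain status on the opposite strand, whose reads cannot be told apart in unstranded counting.

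Fgfr2, a receptor kinase with splice forms that prefer different ligands, was the steadiest member in stem cells. It measured 116, 97.2, 92.6 and 97.9 CPM in stem cells 1 to 4, 56.2, 58.1, 33.4 and 32.5 CPM in progenitors a to d, and 16.0, 41.1, 18.6 and 138 CPM in astrocytes a to d. The progenitor and stem cell libraries did not overlap, whereas the astrocyte libraries ran from below all others to above all others.

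Its mean was 45.1 ± 14 CPM in progenitors and 101 ± 10.1 CPM in stem cells, 2.24-fold higher in the latter. The log2 fold change of progenitors over stem cells was -1.20 ± 0.28 (adjusted p = 0.024, edgeR). This call was less stable than that of Fgfr3: the adjusted p was 0.0763 without progenitor c, 0.0771 without progenitor d and 0.0611 without stem cell library 1, and 0.662 with all 12 libraries in one fit. In astrocytes the mean was 53.5 ± 57.6 CPM, and the log2 fold change over progenitors, 0.25 ± 0.80 (adjusted p = 0.92), became -0.84 without astrocyte d. Fgfr2 lies at chr7:130162451-133123350 (minus strand), and 3.04% of its exonic bases overlap Ctbp2 on the same strand.

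Fgfr1, a receptor kinase widely expressed in the nervous system, was the highest of the 8 genes in CPM in every cell type. It measured 445, 463, 273 and 207 CPM in astrocytes a to d, 189, 190, 169 and 290 CPM in progenitors a to d, and 390, 235, 248 and 290 CPM in stem cells 1 to 4. The 3 ranges overlapped.

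Fgfr1 means were 347 ± 126 CPM in astrocytes, 210 ± 54.2 CPM in progenitors and 291 ± 69.9 CPM in stem cells. The log2 fold changes were 0.72 ± 0.36 for astrocytes over progenitors (adjusted p = 0.32), -0.51 ± 0.23 for progenitors over stem cells (adjusted p = 0.25) and 0.25 ± 0.36 for astrocytes over stem cells (adjusted p = 0.90), all by edgeR. None passed the threshold under any alternative. Fgfr1 lies at chr8:25513654-25575718 (plus strand), with 1.66% of its exonic bases shared with the antisense transcript Gm16159.

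**Figure D2:**
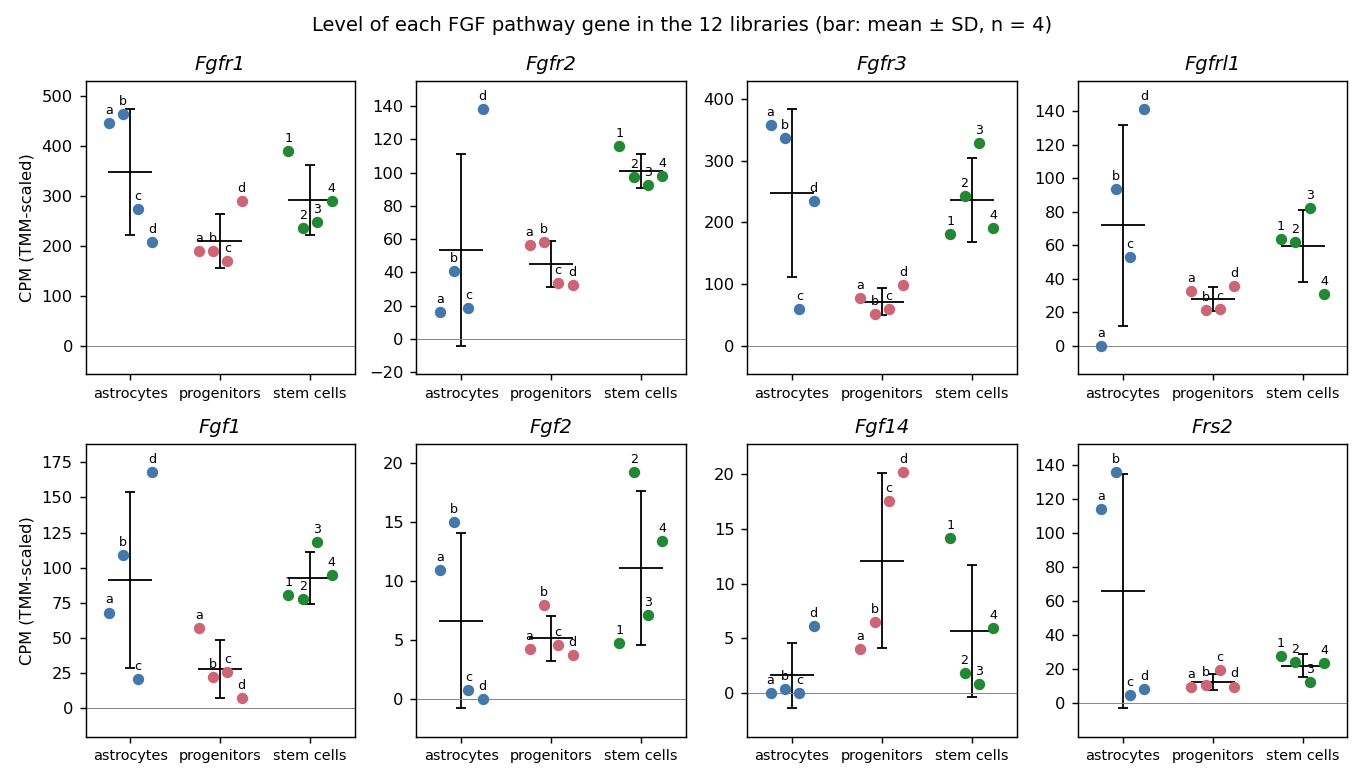
CPM of the 8 genes (y, linear, 1 panel per gene with its own scale) in the 12 libraries, labelled by library; black bars give mean ± SD (n = 4). The 4 progenitor points lie below the 4 stem cell points for Fgfr2, Fgfr3 and Fgf1, and astrocyte points spread widely, as for Frs2 with 114 and 136 CPM in a and b against 4.74 and 8.37 CPM in c and d.

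The make-up of the receptor kinases was compared on CPM per kilobase of merged exons, the scale on which levels of different genes can be set side by side. Summed over Fgfr1, Fgfr2 and Fgfr3, the level was 74.8 ± 28.5 CPM per kb in astrocytes, 35.6 ± 7.65 in progenitors and 72.1 ± 6.91 in stem cells. Progenitors, at 28.6 to 46.3 CPM per kb, lay below every stem cell library (65.5 to 79.9 CPM per kb) and overlapped the astrocytes (37.8 to 97.9 CPM per kb).

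Fgfr1 made up 54.0% to 63.4% of this sum in progenitors and 31.4% to 52.0% in stem cells. Fgfr3 made up 22.4% to 30.6% in progenitors and 33.3% to 57.4% in stem cells, also without overlap. Fgfr2 held 6.80% to 17.5% in progenitors and 11.2% to 14.7% in stem cells, so its share overlapped although its level did not. These shares are bound to sum to the whole and were not tested.

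In astrocytes the make-up differed from library to library. Fgfr1 held 73.1% in astrocyte c and 31.3% in astrocyte d, Fgfr3 held 22.1% in c and between 48.1% and 51.7% in the others, and Fgfr2 held between 1.60% in a and 20.0% in d. Fgfr4, the remaining receptor kinase, had counts only in progenitor d (116 counts, 9.98 CPM) and was not tested.

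**Figure D3:**
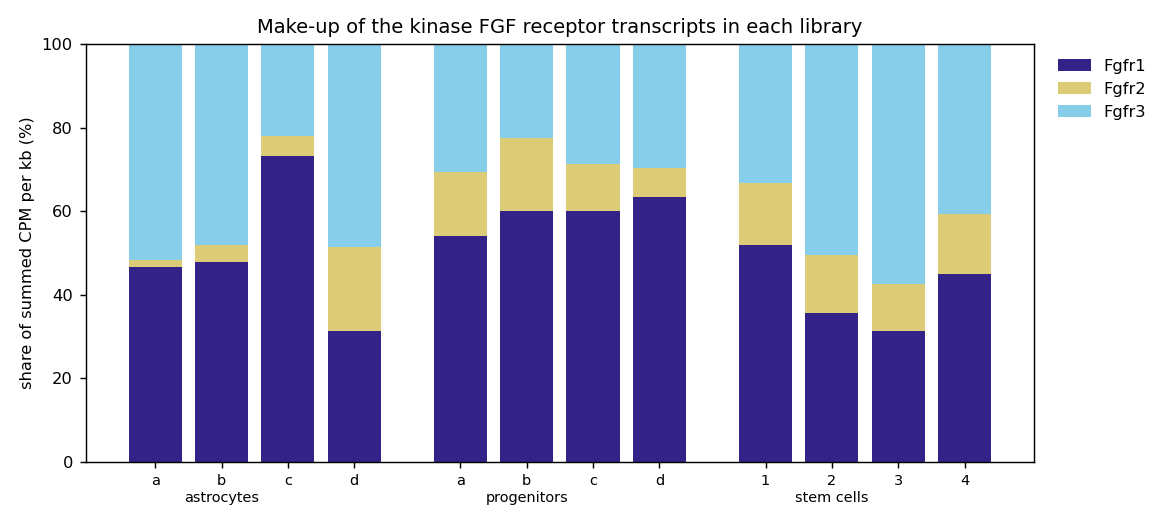
Share of the summed CPM per kb of Fgfr1, Fgfr2 and Fgfr3 taken by each (y, percent, stacked bars from 0 to the whole), 1 bar per library. Fgfr1 takes 54.0% to 63.4% of the sum in progenitors against 31.4% to 52.0% in stem cells, and 31.3% to 73.1% in astrocytes, highest in astrocyte c.

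Fgfrl1, which binds FGF ligands but lacks a kinase domain, was low in progenitors and undetected in 1 astrocyte library. It measured 0, 93.7, 52.7 and 141 CPM in astrocytes a to d, 32.6, 21.1, 22.2 and 35.6 CPM in progenitors a to d, and 63.5, 61.6, 82.3 and 30.8 CPM in stem cells 1 to 4. Astrocyte a had 0 counts, whereas the other 11 libraries had 166 to 691, and the astrocyte mean of 71.9 CPM had an SD of 60.0 CPM. Astrocyte a also had the highest sum of mature neuron markers, 5480 CPM, and the fewest genes with at least 10 counts, 9430. The part of either in this value was not tested.

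The log2 fold change of Fgfrl1 in progenitors over stem cells was -1.13 ± 0.37 and missed the threshold (adjusted p = 0.10, edgeR). It passed without stem cell library 4, where it was -1.34 with an adjusted p of 0.0449, and under DESeq2 (adjusted p = 0.036). These were 1 of 8 fits with a library left out (edgeR adjusted p up to 0.24) and 1 of 6 other settings (edgeR adjusted p up to 0.99). Astrocytes over progenitors gave 1.37 ± 1.28 (adjusted p = 0.66) and astrocytes over stem cells 0.27 ± 1.20 (adjusted p = 0.97). Fgfrl1 lies at chr5:108692382-108706924 (plus strand) and shares no exonic base with another gene.

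Of the ligands, Fgf1, which can activate all FGF receptors, was the more abundant. It measured 80.5, 77.9, 118 and 94.7 CPM in stem cells 1 to 4, 56.9, 22.3, 25.6 and 7.40 CPM in progenitors a to d, and 68.2, 109, 20.7 and 168 CPM in astrocytes a to d. Progenitors and stem cells did not overlap, and the exact permutation test gave p = 0.029, the smallest value that 4 against 4 libraries allow.

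Across all genes the Fgf1 difference did not pass: the log2 fold change of progenitors over stem cells was -1.76 ± 0.52 with an adjusted p of 0.070 by edgeR. Progenitor a was the highest of its group, and without it the value was -2.36 with an adjusted p of 0.0236. Fgf1 was also called by DESeq2 (adjusted p = 0.010), with at least 10 counts required of every library (adjusted p = 0.0388) and with counts thinned to the smallest library (adjusted p = 0.0472). In total it was called in 3 of 6 other settings (edgeR adjusted p up to 0.33). With a library left out it was called in 1 of 8 fits (edgeR adjusted p up to 0.18). Astrocytes over progenitors gave 1.70 ± 0.82 (adjusted p = 0.31) and astrocytes over stem cells -0.03 ± 0.63 (adjusted p = 0.99). Fgf1 had no exonic overlap with another gene.

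Fgf2, the ligand commonly added to neural stem cell cultures, was low everywhere. It measured 10.9, 15.0, 0.79 and 0 CPM in astrocytes a to d, 4.25, 7.94, 4.62 and 3.78 CPM in progenitors a to d, and 4.72, 19.2, 7.13 and 13.4 CPM in stem cells 1 to 4. Astrocyte c had 4 counts and astrocyte d none, and the ranges overlapped in all 3 comparisons. The log2 fold changes were 0.36 ± 1.38, -1.15 ± 0.71 and -0.74 ± 1.5 for astrocytes over progenitors, progenitors over stem cells and astrocytes over stem cells (adjusted p = 0.94, 0.42 and 0.93, edgeR). Fgf2 lies at chr3:37348346-37410108 (plus strand), and 13.2% of its exonic bases overlap other genes, including 9.44% with Nudt6 on the opposite strand.

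Fgf14 belongs to the FGF homologous factors, which stay inside the cell and bind voltage-gated sodium channels. It was the single member with a higher mean in progenitors than in both other cell types. It measured 4.05, 6.52, 17.6 and 20.2 CPM in progenitors a to d, 14.2, 1.82, 0.876 and 5.94 CPM in stem cells 1 to 4, and 0, 0.365, 0 and 6.13 CPM in astrocytes a to d. Stem cell libraries 1 and 4 and astrocyte d lay above progenitor a, the lowest progenitor library, so the ranges overlapped in both comparisons with progenitors.

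The log2 fold change of Fgf14 in astrocytes over progenitors was -2.89 ± 1.67 (adjusted p = 0.41, edgeR), and progenitors over stem cells gave 1.04 ± 0.97 (adjusted p = 0.62). Without astrocyte d, the single astrocyte library with 10 or more counts, the former became -6.44 with an adjusted p of 0.0427 (edgeR). Thus 1 library changed the call. Astrocytes a to c had 0, 2 and 0 counts, so that fit could test Fgf14 only through the progenitor counts. The size of -6.44 rests on astrocyte counts near 0. Astrocytes over stem cells gave -1.82 ± 1.69 (adjusted p = 0.82). Fgf14 lies at chr14:123977907-124677127 (minus strand), with 5.26% of its exonic bases shared with the antisense gene Gm28932.

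Frs2, the adaptor that links activated FGF receptors to Ras and PI3K signalling, split the astrocyte libraries. It measured 114, 136, 4.74 and 8.37 CPM in astrocytes a to d, 9.33, 10.7, 19.7 and 9.72 CPM in progenitors a to d, and 27.7, 24.1, 12.4 and 23.8 CPM in stem cells 1 to 4. Astrocytes a and b lay above all other libraries and c and d below all of them.

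The log2 fold change of Frs2 in astrocytes over progenitors, 2.40 ± 1.10, was the largest of the 8 genes in that direction and did not pass (adjusted p = 0.28, edgeR). Progenitors over stem cells gave -0.87 ± 0.52 (adjusted p = 0.40), with exact permutation p = 0.057, and astrocytes over stem cells gave 1.57 ± 1.06 (adjusted p = 0.73). Frs2 lies at chr10:117069427-117148534 (minus strand) and has no exonic overlap with another gene.

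Taken as a group of 8, progenitors were set against stem cells first. edgeR called 2 of the 8 genes, Fgfr2 and Fgfr3, both lower in progenitors, against 8.60% of all genes called in either direction and 3.66% called lower in progenitors. Libraries did not overlap for 3 of the 8 (Fgfr2, Fgfr3 and Fgf1), against 19.3% of all genes. The median log2 fold change was -1.14 over the 8 genes and 0.04 over all genes tested, and 7 of 8 values were below 0.

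In the same comparison 8 of 10 astrocyte markers were called lower in progenitors, against 3.66% of all genes. Called higher were 7 of 8 oligodendrocyte precursor markers and 6 of 7 tested neurogenic markers, against 8.60% of all genes called in either direction. Neurod1 and Igfbpl1, with at most 3 and 1 counts in a stem cell library, could be tested only through the progenitor counts. The part of these marker shifts in the receptor values was not tested. Progenitor b, whose mural markers were within the astrocyte range and below the stem cell range, had the lowest Fgfr3 level of its group, 51.5 CPM, and the highest Fgfr2 level, 58.1 CPM. Without progenitor b both receptors were called, but that fit keeps the mural-high libraries a, c and d. The part of mural cells in the receptor values was not tested.

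In astrocytes against progenitors edgeR called 0 of the 8 genes, against 8.63% of all genes. Unadjusted p by edgeR was under 0.05 for 1 of them, Fgfr3, against 2792 of the 14806 genes tested. DESeq2 called Fgfr3 as its only member, against 2431 of the 14806 genes. Libraries overlapped for all 8, against 21.0% of all genes without overlap. The median log2 fold change was 1.04 over the 8 genes and 0.03 over all genes, with 7 of 8 values above 0. This comparison shares the progenitor libraries with the previous one, so the values are not independent.

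In astrocytes against stem cells edgeR called 0 of the 8, against 0.0468% of all genes (6 of 12831). Unadjusted p by edgeR was under 0.05 for 0 of them, against 1226 of the 12831 genes tested. DESeq2 called 0 of the 8, and its total over all genes is given at the end. Libraries overlapped for all 8, against 9.97% of all genes without overlap, and the median log2 fold change was 0.02 over the 8 genes and 0.14 over all genes.

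**Figure D4:**
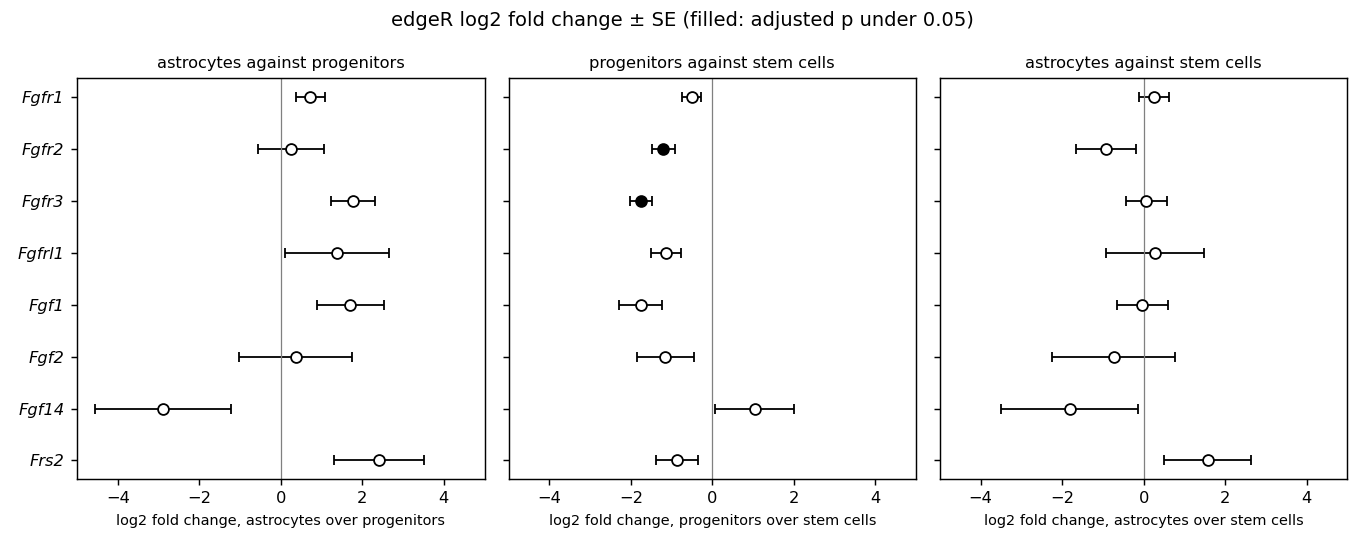
edgeR log2 fold change ± SE (x) of the 8 genes (y) in the 3 comparisons of 4 against 4 libraries, with filled points for adjusted p under 0.05. Only Fgfr2 (-1.20) and Fgfr3 (-1.75) are filled, both in progenitors over stem cells, and error bars are wide wherever astrocytes take part.

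The order of the 8 genes was compared within each cell type on CPM per kilobase. In stem cells Fgfr3 (32.9 ± 9.45 CPM per kb) and Fgfr1 (29.5 ± 7.08) led without a difference beyond their spread, followed by Fgfrl1 (21.4 ± 7.66) and Fgf1 (17.0 ± 3.36). Fgf1 was above Fgfr2 (9.76 ± 0.978) in all 4 stem cell libraries, and Fgfr2 above Frs2 (2.51 ± 0.760) without overlap, while Frs2, Fgf2 (1.64 ± 0.958) and Fgf14 (1.36 ± 1.45) overlapped. With the longest transcript as length, Fgfr1 led in stem cells at 57.7 against 55.5 CPM per kb for Fgfr3.

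In progenitors Fgfr1 led alone at 21.2 ± 5.49 CPM per kb, above Fgfrl1 (10.0 ± 2.63) and Fgfr3 (10.0 ± 2.96) in all 4 libraries and without overlap. Each later pair of neighbours overlapped, from Fgf1 (5.13 ± 3.80) through Fgfr2 (4.36 ± 1.35), Fgf14 (2.89 ± 1.92) and Frs2 (1.41 ± 0.562) to Fgf2 (0.759 ± 0.279). In astrocytes all neighbours overlapped, with Fgfr1 at 35.1 ± 12.8 and Fgfr3 at 34.5 ± 19.0 CPM per kb at the top and Fgf14 at 0.388 ± 0.719 at the bottom. Among all genes detected in a library, the median percentile of Fgfr1 was 86.1 in astrocytes, 85.8 in progenitors and 88.4 in stem cells, while that of Fgfr3 was 88.3, 72.5 and 89.6.

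The genes with patterns closest to the receptor kinases were found by Pearson's r of log2(CPM + 1) over the 12 libraries, among 16119 genes. For Fgfr3 they were Phlpp1 (r = 0.948), a phosphatase, Aig1 (r = 0.900) and Ndrg2 (r = 0.896), a gene well known from astrocytes. Phlpp1 averaged 152 ± 88.8, 60.5 ± 10.9 and 143 ± 31.0 CPM in astrocytes, progenitors and stem cells, and Ndrg2 averaged 2260 ± 1170, 952 ± 35.4 and 2420 ± 117 CPM. Both had the lowest mean in progenitors, as Fgfr3 did.

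For Fgfr2 the closest genes were Spata1 (r = 0.938), Ift27 (r = 0.922) and Dazap2 (r = 0.916), and Dazap2 averaged 198 ± 122, 239 ± 25.5 and 404 ± 31.8 CPM. For Fgfr1 they were Gm9939 (r = 0.892), Eef2kmt (r = 0.888) and Gprc5b (r = 0.884), of which Gm9939 stayed below 5 CPM on average in every cell type. The points of each correlation share cell type, depth and amplification, and the values are given as a description.

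Around these 8 genes, 90 others in 9 lists of the pathway were examined. In progenitors against stem cells 62 were tested, of which 6 were higher and 3 lower in progenitors, against 8.60% of all genes called in either direction. In astrocytes against progenitors 64 were tested, of which 2 were higher and 8 lower in astrocytes, against 8.63% of all genes. In astrocytes against stem cells none of 57 passed by edgeR, against 0.0468% of all genes.

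The remaining secreted ligands had few or no counts. Of 16, 10 had 0 counts in all 12 libraries (Fgf3, Fgf6, Fgf7, Fgf8, Fgf9, Fgf10, Fgf15, Fgf16, Fgf17 and Fgf21), which at this depth allows up to 0.206 to 0.639 CPM per library, and 12 had at most 3 counts in any library. Those above were Fgf18 (up to 28 counts), Fgf20 (up to 16), Fgf22 (up to 99) and Fgf23 (up to 17), which were chosen for naming after their values were seen. No gene of this list was tested.

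None of the 3 intracellular relatives of Fgf14 passed the test in any comparison by edgeR, although the unadjusted p was 0.0082 for Fgf12 in progenitors against stem cells, and 0.046 for Fgf12 and 0.044 for Fgf13 in astrocytes against stem cells. Fgf12 was at 26.7 ± 11 CPM in progenitors and 2.21 ± 1.91 CPM in stem cells without overlap, but its log2 fold change of 3.55 ± 1.08 did not pass (adjusted p = 0.076, edgeR). Fgf13, at 86.5 ± 94.6, 26.9 ± 16.3 and 19.6 ± 10.6 CPM in astrocytes, progenitors and stem cells, and Fgf11, at 4.03 ± 2.94, 5.53 ± 2.02 and 3.97 ± 5.10 CPM, did not pass either.

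Of 8 sodium channel subunits, Scn3a and Scn1a, which form the pore, were called higher in progenitors than in both other cell types. Both reached 10 counts, the minimum for testing, in progenitor libraries only, so being tested depended on the group where they were high. Scn3a was at 42.2 ± 14.8 CPM in progenitors, had no count in astrocytes and at most 1 in stem cells, and was at least 70.6-fold higher than in astrocytes and at least 103-fold higher than in stem cells when 3 counts per library were used as the floor (adjusted p = 0.012 and 0.00078, edgeR). Scn1a was at 22 ± 10.1 CPM, at least 36.9-fold and at least 54.0-fold higher (adjusted p = 0.021 and 0.0033). The call of Scn1a against astrocytes was lost without progenitor b, c or d (adjusted p up to 0.060).

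Scn2b, an auxiliary subunit, was higher in astrocytes than in progenitors (112 ± 130 against 10.8 ± 2.35 CPM, log2 fold change 3.34 ± 0.83, adjusted p = 0.032, edgeR), a call lost without astrocyte a or any 1 progenitor library. Astrocyte a was the library with the highest mature neuron sum. Scn8a, the subunit with the highest mean CPM over the 12 libraries, was at 97.5 ± 47.9, 56.6 ± 22.7 and 29.5 ± 34.8 CPM in astrocytes, progenitors and stem cells and passed in no comparison.

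Heparan sulfate proteoglycans present FGF ligands to their receptors. Gpc5, a glypican, and Sdc4, a syndecan, were lower in progenitors than in stem cells, each by a log2 fold change of -1.42, with SE 0.24 and 0.21 (adjusted p = 0.006 and 0.0033, edgeR). Gpc5 was at 308 ± 80.0 against 807 ± 176 CPM and Sdc4 at 102 ± 22.4 against 265 ± 23.0 CPM. Gpc2 was higher in progenitors (14.7 ± 11.6 against 0.813 ± 0.496 CPM, adjusted p = 0.034), but was called in 1 of 8 fits that left out a library, the one without progenitor a. No stem cell library reached 10 counts of Gpc2, so this test depended on the progenitor counts. Sdc2 was at 134 ± 55.7 and 285 ± 129 CPM and did not pass. The other klotho and proteoglycan genes tested did not pass in any comparison.

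Sulf1 and Sulf2 are extracellular sulfatases that remove sulfate groups from heparan sulfate. Sulf2 was at 222 ± 68.5 CPM in progenitors, 0.958 ± 0.689 CPM in astrocytes and 2.55 ± 3.73 CPM in stem cells. Both comparisons passed (adjusted p = 0.0025 and 0.0047, edgeR) and held whichever library was left out. Sulf1 was at 34.7 ± 22.5 CPM in progenitors, at least 58.1-fold above astrocytes (adjusted p = 0.016), and at 2.94 ± 5.43 CPM in stem cells, where the difference did not pass. Neither sulfatase reached 10 counts in an astrocyte library, so both could be tested against astrocytes only through the progenitor counts. Ext2, a heparan sulfate polymerase subunit, was at 41.8 ± 62.1, 91.5 ± 25.8 and 63.1 ± 32.9 CPM in astrocytes, progenitors and stem cells and did not pass. Of the 12 enzymes in the list, 8 were tested in each comparison with progenitors.

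Of FGF-binding proteins and receptor partners, none of 6 tested passed. Ncam1, a cell adhesion molecule that binds FGF receptors, was at 675 ± 431, 1070 ± 31.3 and 1080 ± 277 CPM in astrocytes, progenitors and stem cells. N-cadherin (Cdh2), which also binds Fgfr1, was at 78.1 ± 40.5, 125 ± 30.6 and 196 ± 45.6 CPM. Both were detected in all 12 libraries.

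Downstream of the receptors 20 adaptor and kinase genes were tested in each comparison with progenitors. The GTPase Hras was higher in astrocytes than in progenitors (71.2 ± 43.6 against 2.68 ± 2.43 CPM, adjusted p = 0.017, edgeR), a call lost without progenitor a or b. Frs3, the relative of Frs2, had 0 counts in astrocytes and 2.40 ± 1.15 CPM in progenitors, at least 4.02-fold higher (adjusted p = 0.016). With 0 counts in astrocytes, Frs3 could be tested here only through the progenitor libraries. Pik3r1 and Araf, the most abundant of these genes, did not pass in any comparison.

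Feedback inhibitors and transcription factors induced by ERK signalling did not move in one direction. In astrocytes against progenitors 3 of 11 were lower in astrocytes, Spry1, Spry4 and Dusp6. Spry4 was at 1.04 ± 0.248 CPM in astrocytes, 53.4 ± 9.17 CPM in progenitors and 10.8 ± 4.43 CPM in stem cells, and Dusp6, an ERK phosphatase, was at 3.89 ± 1.97, 100 ± 14.3 and 61.0 ± 23.6 CPM. Spry1 was at 18.9 ± 9.82 CPM in progenitors, with at most 1 count in an astrocyte library and none in stem cells, at least 31.6-fold and 46.4-fold higher. These astrocyte calls held whichever library was left out (adjusted p up to 0.050). Spry1 reached 10 counts in progenitor libraries only, and Spry4 in no astrocyte library. Spry1, and Spry4 against astrocytes, could thus be tested only because progenitor counts were high.

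In progenitors against stem cells Spry1 and Spry4 were higher in progenitors (adjusted p = 0.0047 and 0.0097, edgeR), opposite in direction to Fgfr2 and Fgfr3. Spred1, another inhibitor of the Ras pathway, was lower in progenitors (17.3 ± 4.16 against 50.1 ± 13.4 CPM, adjusted p = 0.026), but this held in 2 of 8 fits with a library left out, those without stem cell library 1 or 3. Etv5, a transcription factor induced by FGF signalling, was at 141 ± 103, 85.2 ± 16.6 and 113 ± 34.4 CPM in astrocytes, progenitors and stem cells and passed in no comparison. Etv4 likewise did not pass, at 73.0 ± 58.9, 31.4 ± 8.62 and 66.5 ± 24.8 CPM. Like Scn3a, Scn1a, Sulf2, Spry1 and Spry4, the oligodendrocyte precursor and neuroblast sums given above were higher in every progenitor library than in every other library, and their part in these values was not tested. The mural sum was high in progenitors a, c and d and was 39.5 CPM in progenitor b, and its part in these values was not tested either.

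**Figure D5:**
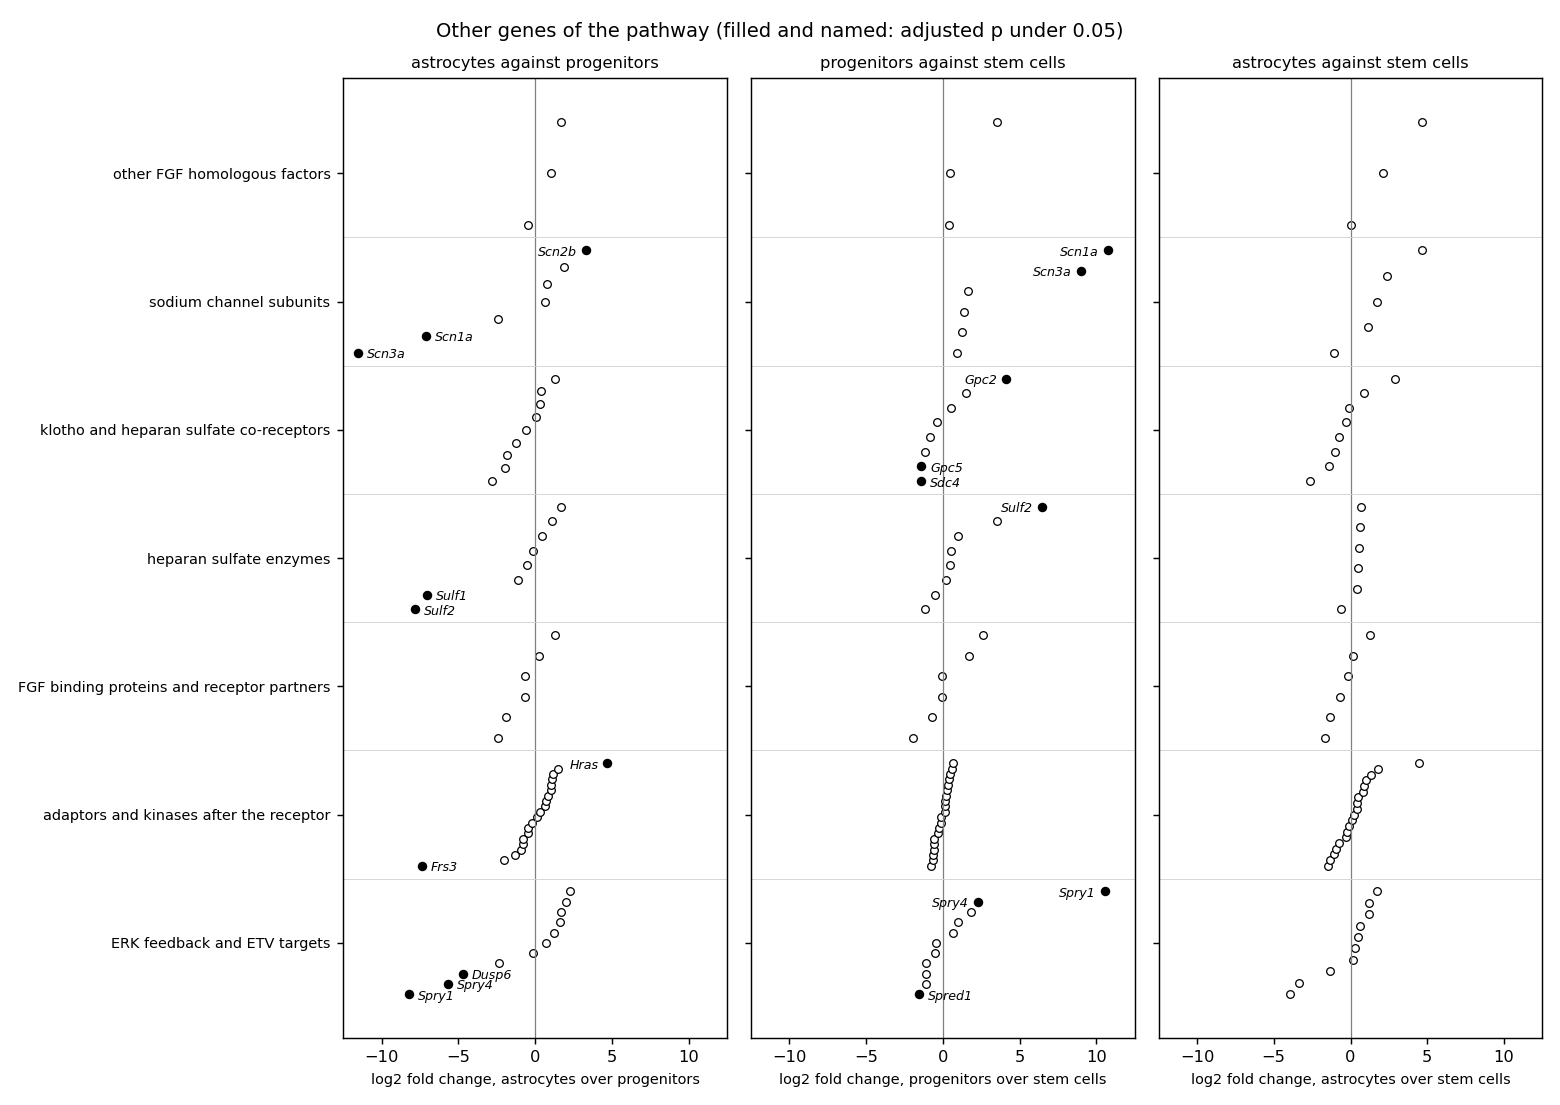
edgeR log2 fold change (x) of each tested gene of 7 pathway lists (y) in the 3 comparisons, with filled, named points for adjusted p under 0.05 and open points otherwise. Fitted values beyond about 7 belong to genes at or near 0 counts in 1 cell type and depend on the prior count; the calls lie on both sides of 0 and none is in astrocytes over stem cells.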

How the data were processed

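RNA-seq libraries were made with SMARTer v4 preamplification and Nextera XT from 50 sorted cells each. The authors first discarded ribosomal, mitochondrial and PhiX reads, aligned the rest with HISAT2 2.0.6 to GRCm38.p4 and deposited raw counts per GENCODE M14 gene from featureCounts without regard to strand. All 12 columns were used. Symbols, exon lengths and coordinates came from GENCODE M21 on GRCm38 (50376 of 50600 identifiers matched), and sequences from RefSeq (GRCm38.p6, 6 of 8 genes matched, 7 windows).

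The 8 libraries of each comparison were fitted with edgeR 4.0.16 (R 4.3.3, TMM, quasi-likelihood test) on genes that reached 10 counts in 4 of them, or in 3 when a library was left out, with a Benjamini-Hochberg threshold of 0.05 over all genes. A gene below 10 counts throughout 1 cell type could be tested only through the cell type where it was high. The SE is the size of the log2 fold change over the root of the F statistic. Permutation tests were exact and two-sided. Python 3.11.15, pandas 2.3.3 and scipy 1.17.1 were used, and the fits were tested on simulated data. The alternatives were DESeq2 1.42.0, its size factors in edgeR, no filter, 10 counts required of every library, a single fit of all 12 libraries, thinned counts, each library left out, and other lengths and scalings. All 8 genes are named. Of the other lists, called genes and at most the 3 most abundant are named. Members and lists were chosen with earlier results of these data known. 1 gene of the pathway is not reported.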

Additional observations from a re-analysis of the deposited data

Results flagged for a closer look

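Each gene was examined in each cell type for a library that stood apart from the other 3, which gave 24 sets of 4 values. A library was singled out when its gap to the nearest other library exceeded Dixon's 95% critical value for 4 values, and chance gives about 1 such set in 20. Fgf14 in astrocytes met this through library d, at 6.13 CPM against at most 0.365 CPM in the others, with a gap of 0.940 of the range. Frs2 in progenitors met it through library c, at 19.7 CPM against at most 10.7 CPM in the others, with a gap of 0.868 of the range.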

How the results depend on the processing

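Of 328 recomputed log2 fold changes of the 8 genes, 298 kept their direction and their side of the threshold, 6 lost and 10 gained a call, and 14 reversed, the last in 5 of 24 results, none of which was called. No paired analysis was possible because the astrocyte and progenitor columns carry no replicate number. In astrocytes against progenitors the number of the 8 genes called was 1 (Fgfr3) with DESeq2 and 1 with all 12 libraries in one fit, and 0 to 1 with a library left out. In progenitors against stem cells it was 3 (Fgf1 added) both with thinned counts and with 10 counts required of every library, 4 with DESeq2, 1 with no count filter, 0 with all 12 libraries in one fit, and 1 to 3 with a library left out. Over all genes DESeq2 called 2431, 2394 and 635 genes, against 1278, 1327 and 6 with edgeR, and the cause was not tested.

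Reversals under other settings were Fgfr2 in astrocytes over progenitors (-0.07) and Fgfr3 in astrocytes over stem cells (-0.09) with at least 10 counts in every library, and Fgf1 in astrocytes over stem cells with DESeq2 (0.05) and with its size factors in edgeR (0.05). With a library left out, the log2 fold change ranged from -0.84 to 0.56 for Fgfr2 and from -0.45 to 0.77 for Fgf2 in astrocytes over progenitors, and from -0.19 to 0.37 for Fgfr3, from -0.31 to 0.67 for Fgfrl1 and from -0.52 to 0.29 for Fgf1 in astrocytes over stem cells. Of 19 calls of other pathway genes, 14 held in every fit with a library left out, 12 held under every other alternative, and 0 reversed.

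Fgf2 had fewer than 10 counts in astrocytes c and d, and Fgf14 in astrocytes a, b and c and stem cell library 3, where differences could be missed at this depth. Thinning to the smallest library moved Fgf2 in astrocytes over progenitors from 0.36 to 0.31. Without a count filter the median of all genes shifted from 0.03 to -0.19 (astrocytes over progenitors) and from 0.04 to 0.25 (progenitors over stem cells).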
